A study of Mus musculus with 4 samples.

Results

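The PEA3 group of ETS transcription factors comprises Etv1 (ER81), Etv4 (PEA3) and Etv5 (ERM). They were read here from every feature of the array whose annotated symbol is exactly Etv1, Etv4 or Etv5, which gave 5 features for 3 genes among 35557 features in all: 2 for Etv1, 1 for Etv4 and 2 for Etv5. Where a gene had more than 1 feature, its value was taken from the one with the highest mean over the arrays, and the other is given beside it. RNA came from mouse embryonic dorsal cortex, taken at E18.5, and was hybridised to 4 single-colour whole-transcript arrays. The 2 control samples are Mek1fl/wt, Mek2-/-, and the 2 mutant samples are Mek1fl/fl, Mek2-/-, NestinCre, per the labels. Both groups therefore lack Mek2, although the design text calls the controls wild type, and NestinCre is named in the mutant labels alone, so the transgene and the loss of Mek1 cannot be told apart. Nestin-driven Cre acts in neural progenitors and is inherited by the neurons and glia they make, while vessels and microglia arise from other lineages. The labels name no litter or batch and do not say whether the samples of a group come from separate embryos. By Xist and Y-linked genes the 2 samples of each group differ in sex, so they are not from the same embryo. The p-values rest on the spread between these samples, moderated by the spread that the limma fit shares between genes. Values are log2 expression after the authors' RMA, a method that corrects background, makes the distributions of the arrays alike and gives 1 value per feature, so a shift common to nearly all transcripts would not show.

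The PEA3 proteins share an ETS domain that binds DNA around a GGAA core, and they activate transcription when receptor tyrosine kinases, FGF receptors above all, signal through RAS, MEK and ERK. The pathway acts on them at several levels: ERK phosphorylates the proteins, the COP1 ubiquitin ligase removes them, and the repressor Capicua, which ERK inactivates, binds TGAATG octamers at their genes. In the developing cortex Etv4 and Etv5 are known from progenitors that receive FGF, Etv5 also from glia, and Etv1 is best known as a marker of layer 5 projection neurons. The comparison asks what becomes of their transcripts when Mek1 is lost on a background without Mek2.

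Promoter windows are shown because all 3 genes differed in the same direction and a repressor site known from this group can be looked for in them. The RefSeq promoter table (GRCm38.p6) holds windows of 300 bases, from 250 before to 50 after a start site, for 2 of the 3 members; the entry missing is that of Etv4. Capitals mark TGAATG, the core of the Capicua octamer, and AGGAAG, an ETS core with its flanks, on either strand.
Etv5, second start, chr16:22438319-22438618, minus strand: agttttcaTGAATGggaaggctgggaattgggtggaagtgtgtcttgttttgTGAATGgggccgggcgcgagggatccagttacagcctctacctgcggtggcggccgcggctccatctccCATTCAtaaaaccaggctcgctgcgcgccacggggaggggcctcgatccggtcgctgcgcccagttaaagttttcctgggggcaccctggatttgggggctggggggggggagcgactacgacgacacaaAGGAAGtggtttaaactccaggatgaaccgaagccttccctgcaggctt
Etv5, first start, chr16:22439521-22439820, minus strand: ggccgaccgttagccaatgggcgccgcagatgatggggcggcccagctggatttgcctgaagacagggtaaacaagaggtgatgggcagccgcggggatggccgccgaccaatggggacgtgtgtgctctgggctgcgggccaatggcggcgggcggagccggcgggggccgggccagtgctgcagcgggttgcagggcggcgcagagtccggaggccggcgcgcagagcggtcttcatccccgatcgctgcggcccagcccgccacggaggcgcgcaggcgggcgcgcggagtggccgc
Etv1, first start, chr12:38779832-38780131, plus strand: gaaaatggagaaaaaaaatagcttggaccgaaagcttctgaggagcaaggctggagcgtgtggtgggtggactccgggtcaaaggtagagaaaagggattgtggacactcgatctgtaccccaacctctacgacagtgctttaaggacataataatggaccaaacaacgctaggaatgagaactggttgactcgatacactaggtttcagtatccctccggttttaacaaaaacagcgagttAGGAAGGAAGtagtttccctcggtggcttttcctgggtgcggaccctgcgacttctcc
The window of the second Etv5 start, 1202 bases downstream of the first, held TGAATG 3 times, at 242 and 198 bases before the start on the coding strand and at 129 bases before it on the other strand. Of all 32817 promoter windows of this length, 12.7% held TGAATG at least once and 0.171% at least 3 times. In all 3 matches the next bases made TGAATGGG, an octamer that was added to the search after the sequence had been seen, and 1 of the 32817 windows held it 3 times, this one. The octamers TGAATGAA and TGAATGGA, found in 1.3% and 1.21% of all windows, were in none of the Etv5 or Etv1 windows. AGGAAG, which 35.4% of all windows held, occurred as 2 overlapping matches just before the first Etv1 start and once at the second Etv5 start, and CCGGAAGT (3.89% of all windows) occurred in none. The window of a second Etv1 start, not shown, held none of these letters. A match describes the letters only, and no binding was measured.

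Etv5 differed most. It stood at 8.71 and 8.61 on the control arrays and at 7.28 and 7.27 on the mutant arrays. The groups lay 1.33 apart at their nearest arrays, against a gap of 0.10 between the controls and 0.01 between the mutants. Etv5 fell 2.62-fold (95% interval 2.35 to 2.91), from 8.66 ± 0.07 to 7.27 ± 0.01 (SD, n = 2 each), a difference of -1.39 ± 0.06 (SE) on the log2 scale (limma, adjusted p = 0.00538). The dimmer feature had 8.27 and 8.26 in the controls and 6.83 and 6.59 in the mutants, again without overlap. It fell 2.93-fold (95% interval 2.50 to 3.44; adjusted p = 0.00936 in limma with that feature in place of the brighter one). The call was lost with all 35557 features tested (adjusted p = 0.178 in limma).

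Etv4 had values of 7.020 and 7.018 in the controls and 6.25 and 6.35 in the mutants. The controls were nearly equal, and both mutants lay below them by at least 0.67. Etv4 fell 1.65-fold (95% interval 1.48 to 1.83), from 7.019 ± 0.002 to 6.30 ± 0.07 (SD, n = 2 each; difference -0.72 ± 0.06 SE, adjusted p = 0.0226 in limma). Its mutant mean lay close to the dim limit of the filter (6.16), no measure of signal over background was at hand, and RMA compresses the folds of dim features, so the size of this fold depends on the background. The call was lost without control 1 (adjusted p = 0.170), without control 2 (adjusted p = 0.147), when dim genes were kept (adjusted p = 0.0660), with all 35557 features tested (adjusted p = 0.258) and with embryo sex as a covariate (adjusted p = 0.0540), each in limma, while the difference stayed between -0.77 and -0.67 in the 14 other fits that held the gene.

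Etv1 had 9.41 and 9.43 in the controls and 8.90 and 9.08 in the mutants. Its mutants were further apart than its controls, by 0.18 against 0.02, yet both lay at least 0.33 below the lower control. The means were 9.42 ± 0.02 and 8.99 ± 0.12 (SD, n = 2 each), a difference of -0.43 ± 0.08 (SE; 95% interval -0.62 to -0.24) that did not pass the test in limma (adjusted p = 0.0943). The dimmer feature gave 8.95 and 8.99 against 8.47 and 8.71, a difference of -0.38 ± 0.09 (SE; adjusted p = 0.182 in limma). The difference was -0.52 without mutant 2 and -0.34 without mutant 1. Each of those fits takes the gene's own spread from the controls alone. It also passed when the prior of the fit followed the mean level (adjusted p = 0.0456 in limma).

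**Figure D1:**
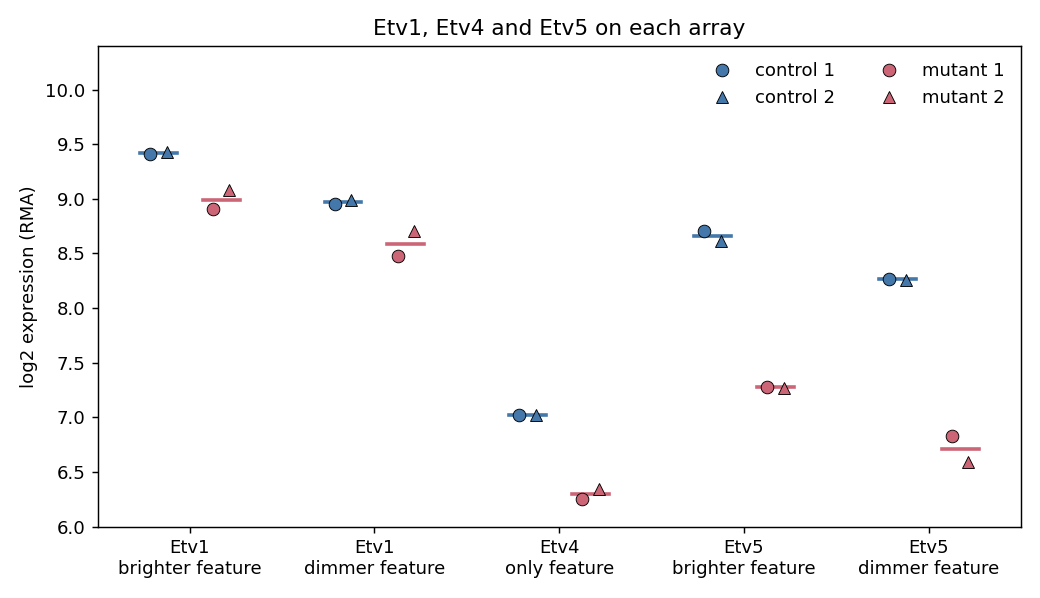
Log2 expression of each of the 5 features of Etv1, Etv4 and Etv5 on each array; circles and triangles are replicates 1 and 2, colours the groups, and horizontal lines the group means. On every feature both mutant arrays lie below both control arrays, with the widest gap for Etv5.

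So 2 of the 3 members were called lower and none higher, where 1.01% of all genes tested were called lower and 0.0143% higher. Both mutant arrays lay below both controls for 3 of 3 members and for each of the 5 features, where 21.4% of all genes tested had this arrangement. By rank of decrease among the 13956 genes, Etv5 was at place 12, Etv4 at 91 and Etv1 at 343. With 2 arrays against 2, an exact permutation test of any single gene can give no two-sided p below 0.333, which is the value for each member here, so the calls rest on the spread that limma shares between genes. Each group held 1 female and 1 male sample by Xist and Y-linked genes. Because the groups did not overlap for any member, the mutant had to be lower within each sex, so that direction adds no support. Etv5 differed by -1.44 between the females and by -1.33 between the males. The corresponding values were -0.67 and -0.77 for Etv4 and -0.33 and -0.53 for Etv1.

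The size of the difference was compared between members. Taken within each array, the log2 value of Etv5 minus that of Etv4 was 1.69 and 1.60 in controls and 1.03 and 0.92 in mutants, so Etv5 differed by 0.67 more on the log2 scale, that is 1.59-fold more. Against Etv1, the fold of Etv5 was 1.94 times as large and that of Etv4 1.22 times. For each of the 3 pairs the groups did not overlap, and each exact two-sided permutation p was 0.333, the smallest these arrays allow (0.333 after Benjamini-Hochberg adjustment over the 3 pairs), so no permutation test of the order Etv5, Etv4, Etv1 could pass here. Folds of features of unlike brightness are compressed to unlike degrees, and only the change of these within-array values between the groups was read, not the values themselves.

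**Figure D2:**
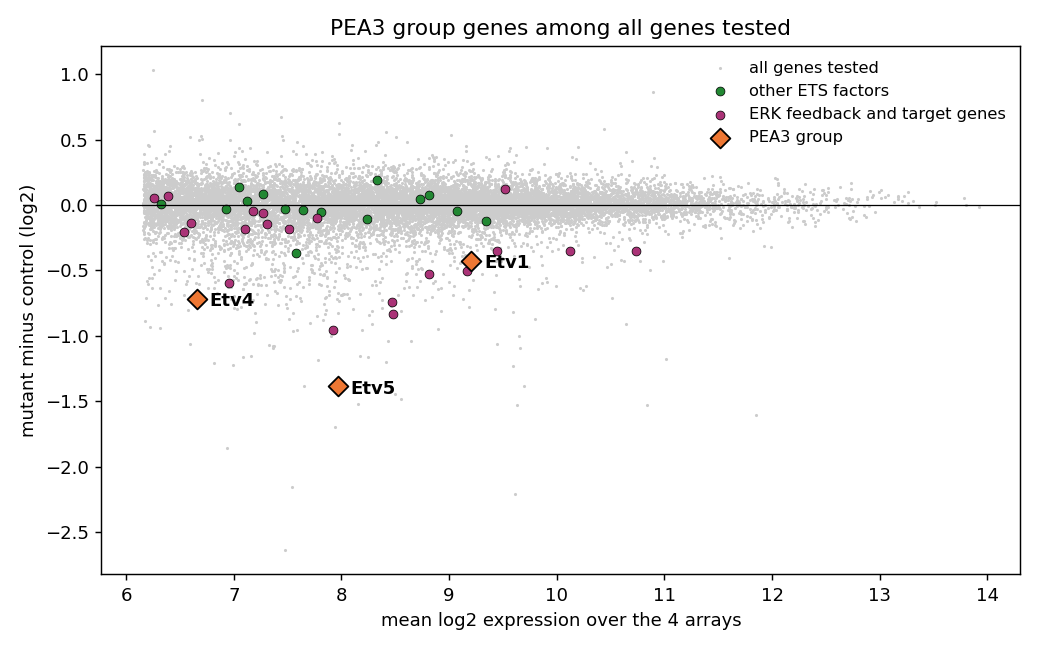
Mutant minus control on the log2 scale against the mean log2 expression over the 4 arrays, for all 13956 genes tested (grey), the other ETS factors (green), ERK feedback and target genes (purple) and the PEA3 group (orange diamonds). Etv5 lies at -1.39, Etv4 at -0.72 and Etv1 at -0.43.

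The brighter features of Etv1 and Etv5 stand in unusual places on the array's list. Feature identifiers run by chromosome: among 20394 annotated features whose neighbours on both sides belong to 1 chromosome, 97.4% belong to that chromosome too, by RefSeq. The brighter Etv5 feature stands between features of Ipmk and Hbs1l, with 10 of its 10 nearest annotated neighbours on chromosome 10, while Etv5 is on chromosome 16. The brighter Etv1 feature stands between features of Cd180 and Sgtb, with 10 of 10 neighbours on chromosome 13, while Etv1 is on chromosome 12. The dimmer features of both genes and the feature of Etv4 stand among neighbours from the gene's own chromosome. The probes behind each feature are not given here, and whether the brighter features also take signal from elsewhere in the genome was not tested. The direction was the same from both features of each gene, and Etv5 passed with either one.

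Among the other ETS factors no member passed. Of 23 on the list, 22 were measured and 15 lay above the dim limit. In limma 0 were called, where 1.01% of all genes tested were called lower and 0.0143% higher. At such shares 0 calls in a list this short is no result about its genes, here or in the lists below. Of the 15, 8 had a lower and 7 a higher mean in mutants. The median difference was -0.03, against 0.01 over all genes tested. At an unadjusted p under 0.05 there were 2 of these ETS factors in limma, Elk3 and Ets2. The share of all genes tested under that unadjusted limit was not counted. Such counts, here and in the lists below, therefore have no background beside them. Elk3 (Net), a ternary complex factor that ERK phosphorylates, had 7.84 and 7.69 in controls and 7.33 and 7.46 in mutants (difference -0.37 ± 0.08 SE, adjusted p = 0.152). Ets2, itself an ERK substrate, lay higher in mutants, at 8.38 and 8.47 against 8.19 and 8.28 (0.19 ± 0.07 SE, adjusted p = 0.312). Elk4 (-0.11, adjusted p = 0.480) and Gabpa (-0.12, adjusted p = 0.576) had the next smallest p in limma. Every other tested ETS factor lay between -0.05 and 0.14. Without mutant 2, 1 of the ETS list was called, Elk3 (-0.43, adjusted p = 0.0374 in limma).

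No regulator of the group passed the test. Of 12 genes for the Capicua complex and for COP1 with its adaptors, 12 were tested and 0 were called in limma. Over all genes tested, 1.01% were called lower and 0.0143% higher, so 0 of 12 is no result about the list. An unadjusted p under 0.05 was found for 3. The median difference was 0.01. Cic, which encodes Capicua, had 9.22 and 9.19 in controls and 9.37 and 9.33 in mutants (difference 0.15 ± 0.06 SE, adjusted p = 0.347), and its partner Atxn1 had 9.61 and 9.64 against 9.84 and 9.88 (0.24 ± 0.06 SE, adjusted p = 0.173). Both lay higher in each mutant than in each control, without passing. On this list the groups lay apart upwards for 3 genes and downwards for 4. Over all genes tested 21.4% lay apart downwards, and the upward share was not counted. Trib2, a pseudokinase that brings substrates to COP1, had 9.65 and 9.75 against 9.27 and 9.27 (difference -0.43 ± 0.06 SE, adjusted p = 0.0566 in limma). Cop1 itself was at 0.02 ± 0.06 (SE), and Cul4b, a cullin scaffold of such ligases, at -0.20 (adjusted p = 0.378). Capicua is controlled by phosphorylation, which arrays do not measure.

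Upstream, 17 of 20 FGF ligands, receptors and docking proteins were tested and 0 were called in limma. Over all genes tested, 1.01% were called lower and 0.0143% higher. The list had 6 at an unadjusted p under 0.05 and a median of 0.03. Fgfr3, a receptor of radial glia and astrocytes, had 8.84 and 8.88 in controls and 8.21 and 8.45 in mutants (difference -0.53 ± 0.09 SE, adjusted p = 0.0902). Fgfr1 had 9.53 and 9.62 against 8.80 and 9.28, so 1 mutant array made most of its difference (-0.53 ± 0.16 SE, adjusted p = 0.258). Fgfr2 differed by -0.04 ± 0.07 (SE). Fgf7 (0.18, adjusted p = 0.281) and Fgfr4 (0.22, adjusted p = 0.294) lay higher without passing.

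Some other transcripts known to depend on ERK fell as well. Of 21 feedback inhibitors and target genes, 20 were tested: 3 fell in limma, where 1.01% of all genes tested did, 0 rose and 17 did not pass. In 17 of the 20 the mutant mean was lower, where 47.7% of all genes tested had a lower mean, and in 14 the groups did not overlap in that direction, where 21.4% of all genes tested did not. At an unadjusted p under 0.05 there were 13 of the 20 in limma. The median difference was -0.19. Spred3, an inhibitor of RAS signalling, fell 1.94-fold (8.35 and 8.44 against 7.38 and 7.50; adjusted p = 0.0185 in limma), a smaller fold than that of Etv5. Spry2, a Sprouty inhibitor, fell 1.44-fold (adjusted p = 0.0427) and Spred1 fell 1.42-fold (adjusted p = 0.0314) in limma.

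Several genes commonly read as ERK output beside Etv4 and Etv5 did not pass. Spry4 differed by -0.60 (adjusted p = 0.0577), the cyclin Ccnd1 by -0.75 (adjusted p = 0.0790) and Dusp4, an ERK phosphatase, by -0.83 (adjusted p = 0.0870) in limma. Dusp6, the phosphatase most specific for ERK, had 9.67 and 9.56 in controls and 9.33 and 9.20 in mutants (-0.35 ± 0.07 SE, adjusted p = 0.140). The immediate early genes Egr1 and Fos overlapped between the groups, at -0.13 and 0.05, and Myc was at 0.13. The number of these genes called was 0 without control 1, without control 2 and when dim genes were kept, 6 without mutant 1 and 8 without mutant 2. These genes were listed with results of these arrays known, so their direction is not independent support.

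**Figure D3:**
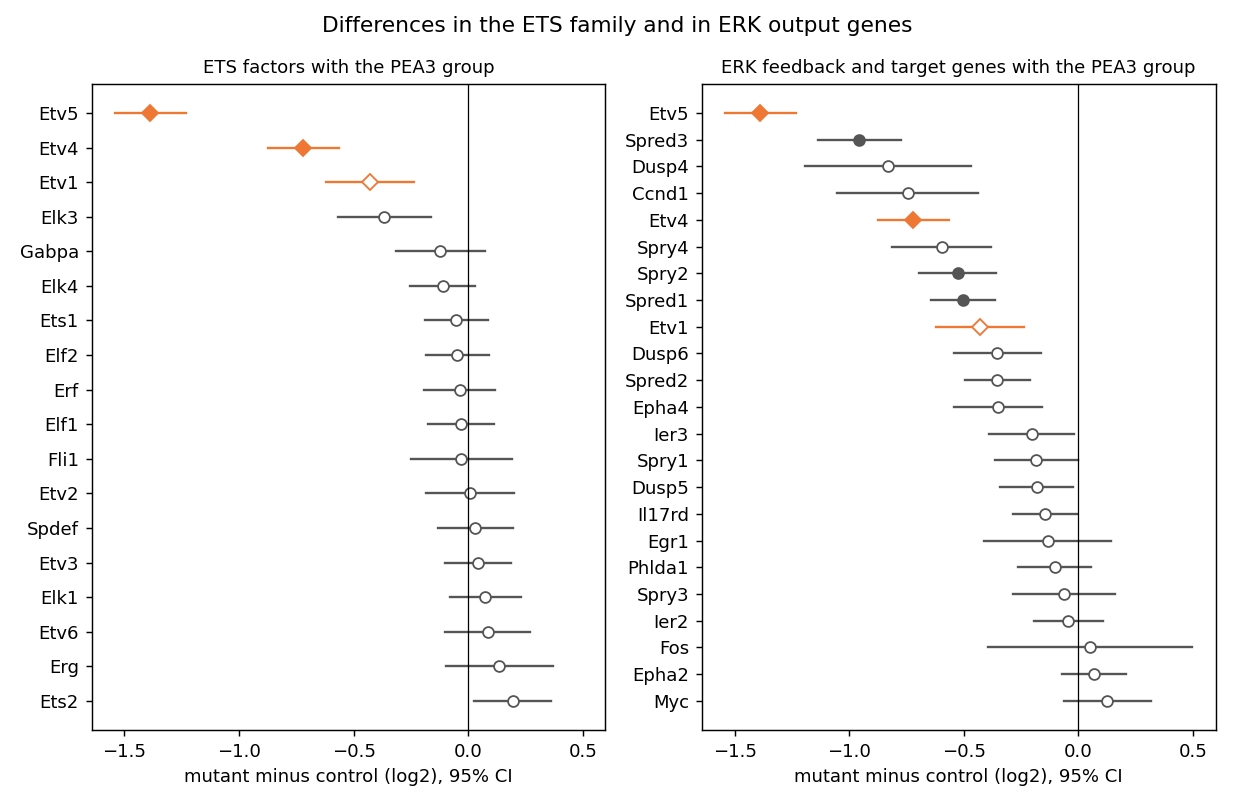
Log2 differences, mutant minus control, with 95% intervals from limma, for ETS factors (left) and ERK feedback and target genes (right), each with the PEA3 group in orange; filled symbols have an adjusted p under 0.05. On the left only Etv5 and Etv4 are filled in the fit shown; on the right Spred3, Spry2 and Spred1 are filled as well.

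Genes that PEA3 factors are tied to in other tissues did not pass the test. Of 12 such genes from kidney, testis, tumours and neurons, 11 were tested. In limma 0 were called, where 1.01% of all genes tested were called lower and 0.0143% higher. An unadjusted p under 0.05 was found for 2, and the median difference was -0.03. Mmp14, a membrane-bound matrix metalloproteinase, had 9.40 and 9.35 in controls and 8.92 and 8.98 in mutants (-0.42 ± 0.06 SE, adjusted p = 0.0548). Cxcr4, the receptor for the chemokine CXCL12, had 11.44 and 11.49 against 11.28 and 11.31 (-0.17 ± 0.06 SE, adjusted p = 0.308). Met was at 0.12 and Sema3e at -0.06, both with overlapping groups.

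Among markers of cells that carry these factors, some glial and proliferation genes fell and others did not pass. The radial glia and astrocyte list, on which Etv5 does not stand, had 6 of 13 tested genes called lower and 12 of 13 with groups apart in that direction, with a median of -0.49; over all genes tested these shares were 1.01% and 21.4%. Those called were Slc1a3, Aldoc, Fabp7, Aldh1l1, Tnc and Hopx, with differences from -0.76 for Hopx to -2.21 for Tnc. At an unadjusted p under 0.05 there were 12 of the 13 in limma. The 1 with a higher mean was Gfap (0.04), with overlapping groups. Its summed linear level over 14 measured genes was 23282 and 23327 in controls and 11266 and 12886 in mutants, and its dimmest marker, Aqp4, was under the dim limit. Etv5's difference of -1.39 lay near those of Slc1a3, the glutamate transporter GLAST (-1.53), and Aldh1l1, a folate enzyme of astrocytes (-1.44), and beyond those of Pax6 (-0.22), Vim (-0.31) and Hes5 (-0.28), which did not pass. For oligodendrocyte precursors 3 of 6 markers were called lower (Pdgfra, Olig1 and Gpr17), with summed levels of 1451 and 1440 against 512.5 and 511.9. Olig2 (-1.85) and Sox10 (-0.28) were lower without passing, and Cspg4 was at 0.01 with overlapping groups. An unadjusted p under 0.05 was found for 5 of the 6 in limma. For proliferation 4 of 7 were called lower (Mki67, Top2a, Mcm3 and Bub1), with 4495 and 4355 against 2875 and 3067. All 7 had an unadjusted p under 0.05 in limma. In tissue RNA, fewer cells of a type and less RNA per cell cannot be told apart, and the part of these cells in the decrease of Etv4 and Etv5 was not tested.

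The difference of Etv1 had the opposite sign to the median of other markers of its layer. Of 10 further layer 5 markers 9 were tested and 0 were called in limma. The shares called over all genes tested were 1.01% lower and 0.0143% higher. Of the 9, 1 had an unadjusted p under 0.05. 2 had a lower and 7 a higher mean in mutants, the median difference was 0.10, and summed levels went from 8196 and 8651 in controls to 9450 and 10343 in mutants. Without S100a10 the sums were 7031 and 6947 against 7261 and 7340. Fezf2, which specifies subcerebral neurons, had 10.37 and 10.42 against 10.47 and 10.53 (0.10 ± 0.06 SE, adjusted p = 0.538), and Bcl11b (CTIP2) was at 0.06 ± 0.06 (SE). S100a10 had the largest difference, 0.86 (adjusted p = 0.209), and Kcnn2 was at 0.18 (adjusted p = 0.416) and Ldb2 at 0.14 (adjusted p = 0.591) in limma. The 2 with a lower mean were Crym (-0.14) and Pcp4 (-0.09), both with overlapping groups. The difference between Etv1 and the layer 5 markers was not tested.

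The genes whose pattern lay nearest to each member were found by the Euclidean distance between log2 deviations from the mean over the 4 arrays. It is a measure that 4 arrays leave coarse. Predicted genes without an assigned name, such as those with Gm or Rik symbols, were skipped. Nearest to Etv5 were Cybrd1, an iron-reducing cytochrome (distance 0.03), Aldh1l1 (0.09), Aldoc (0.19), Slc1a3 (0.19) and the adaptor Shc3 (0.23). Etv4 had Itgav, Tacc3, Qk, Itgb5 and Cmtm5 nearest, at distances of 0.04 to 0.06. Etv1 had Pea15a at 0.01 and Rrm1, Cdca5, Rfc4 and Ccdc190 at 0.03 to 0.04.

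**Figure D4:**
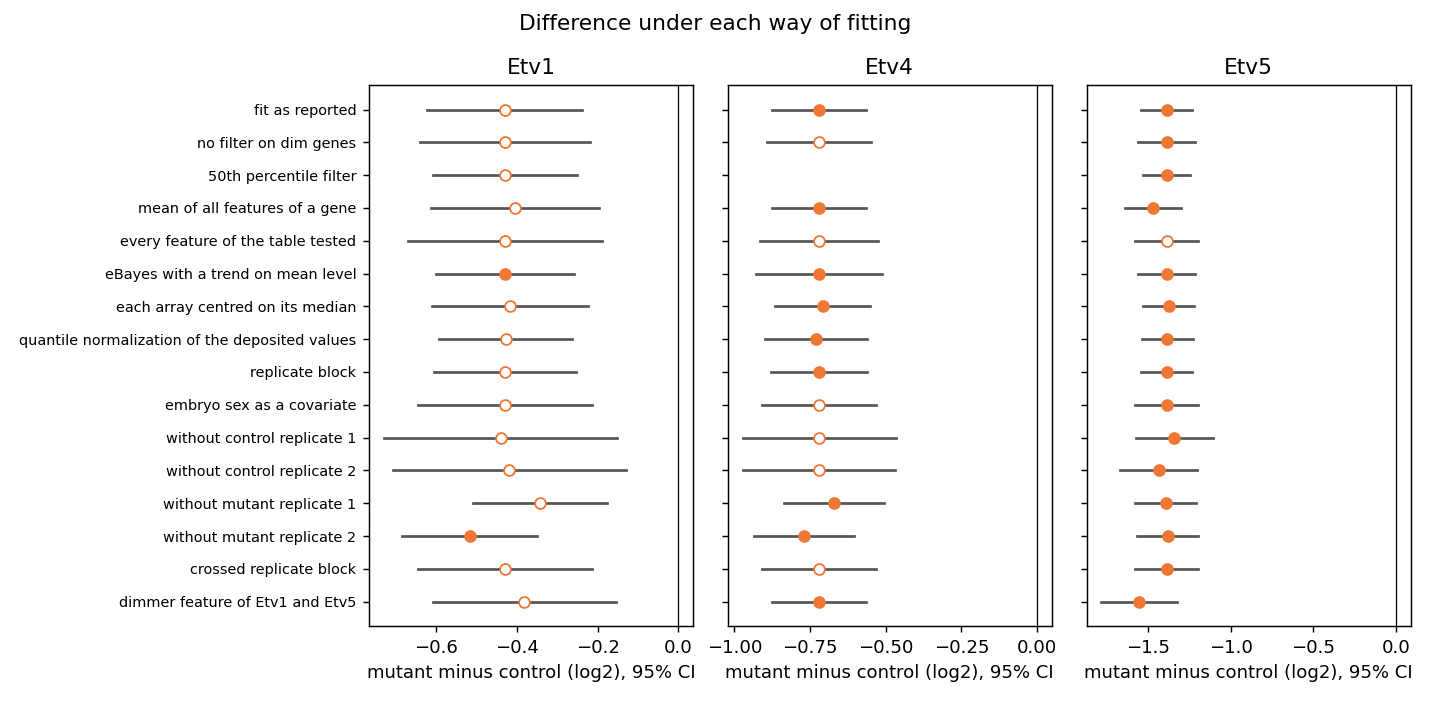
Log2 differences, mutant minus control, with 95% intervals for Etv1, Etv4 and Etv5 under the fit reported and 15 others; filled circles have an adjusted p under 0.05 in limma, and Etv4 has no value under the 50th percentile filter. Etv5 is filled in all of them except with all 35557 features tested. The fits with embryo sex as a covariate and with the crossed block are the same model.

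The arrays and tissue were checked briefly. The array medians lay between 7.11 and 7.13, and the root mean square gap over tested genes was 0.149 within controls and 0.191 within mutants. Map2k1 (Mek1) had 8.76 and 8.84 in controls and 8.50 and 8.73 in mutants (difference -0.19, adjusted p = 0.469 in limma), and Map2k2 (Mek2), null in both groups by label, was at 8.57 and 8.47 against 8.57 and 8.64 (0.08, adjusted p = 0.657); probes inside and outside a deleted part are not told apart, so neither checks the labels. Of 8 dorsal cortex markers 6 were measured and 0 called in limma (2 at an unadjusted p under 0.05), with Neurod2 at 0.20 and Emx2 at -0.70. Emx2 had 7.80 and 7.86 in controls and 6.70 and 7.56 in mutants, so mutant 1 made most of its difference. All 8 general neuronal markers had a higher mean in mutants without passing (0.02 to 0.17, led by Elavl3 and Tubb3). Interneuron (led by Dlx1 and Lhx6), endothelial (Cdh5, Pecam1), meningeal (Col3a1, Dcn), microglial (Cx3cr1, Csf1r) and choroid plexus (Folr1, Ttr) markers had no call, as did the red cell gene Alas2. Cx3cr1 (-0.28, adjusted p = 0.206), Csf1r (-0.25, adjusted p = 0.374) and Alas2 (-0.23, adjusted p = 0.236) were lower in limma without passing. For each of them both mutants lay below both controls, as for 21.4% of all genes tested. The microglial gene Tmem119 was at 0.05 with overlapping groups. Ttr, the defining transcript of choroid plexus, was at 9.15 on control 2 and between 6.50 and 7.17 on the other arrays, and without control 2 the differences of Etv5, Etv4 and Etv1 were -1.43, -0.72 and -0.42. The meningeal gene Dcn was at 6.70 on mutant 1 and between 7.81 and 7.84 on the other arrays. Without mutant 1 the differences of Etv5, Etv4 and Etv1 were -1.39, -0.67 and -0.34.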

How the data were processed

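Dorsal cortex RNA (200 ng per array) from 2 control and 2 mutant samples was measured on single-colour whole-transcript arrays. The deposited table holds log2 values from RMA, which the submitters' processing notes name; version, software, build and filters are not given in the sources used, and a log base of 2 was taken from the values' range. No scanner intensities were used, and 4 arrays limit the precision.

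Of 35557 features, 21789 had 1 gene symbol in the platform annotation, 1621 several and 12147 none listed. Symbols were updated by Entrez identifier in RefSeq (21698 matched, 91 kept the platform symbol). The feature with the highest mean was kept for each of 19938 genes, and genes with a mean under the 30th percentile (6.16) were left out, which left 13956. The comparison used limma 3.58.1 under R 4.3.3 (lmFit, then eBayes with no trend and no covariate; 2 residual and 3.31 prior degrees of freedom), with Benjamini-Hochberg adjustment over all genes tested and calls at an adjusted p under 0.05. The code was tested on simulated data. Differences are mutant minus control, and intervals are 95% from limma. Summed marker levels are sums of the values after undoing the log.

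The members and the gene lists were chosen with earlier results of these data known. Besides the members, Map2k1 and Map2k2, the text names the called genes of each list. Otherwise it names the 4 (pathway lists) or 2 (other lists) with the smallest p. It also names the 5 genes nearest in pattern to each member, with predicted genes without an assigned name skipped. Others named were chosen after their values were seen. 13 alternatives were planned, and 2 were added after seeing the data: the dimmer features and the crossed block.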

Additional observations from a re-analysis of the deposited data

How the results depend on the processing

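All 3 members kept their direction in every other fit that held them: 15 for Etv1 and Etv5 and 14 for Etv4, which the 50th percentile filter removed. The filters, the trend, the blocks and the sex covariate leave the difference itself unchanged. Groups that do not overlap keep their sign when 1 array is left out or when features are averaged. Direction could therefore not turn in most of these fits. The fits with embryo sex and with the pairing crossed are the same model, so 1 model counts as 2 fits here. Etv5 was called in 14 of 15 (adjusted p up to 0.0415), Etv4 in 8 of 14 and Etv1 in 2 of 15 by limma. Beside the fits without control 1 (adjusted p = 0.170) and without control 2 (adjusted p = 0.147), in which Etv4 was not called by limma, the calls lost were those at -1.39 for Etv5 (adjusted p = 0.178) and -0.72 for Etv4 (adjusted p = 0.258) with all 35557 features tested, and -0.72 for Etv4 when dim genes were kept, with embryo sex as a covariate and with the pairing crossed. Etv1 gained a call at -0.43 when the prior followed the mean level, and its other call was at -0.52 without mutant 2. Leaving out 1 array at a time, the differences ran from -1.43 to -1.34 for Etv5, from -0.77 to -0.67 for Etv4 and from -0.52 to -0.34 for Etv1. A group left with 1 array is assumed to vary like the other.

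Genes called lower numbered 141 in the fit reported, 15 with dim genes kept, 0 with every feature tested, 217 with the trend and 17 with sex; leaving out 1 array gave 9 to 729. Genes called higher numbered 2, against 0 in the fits with dim genes kept, every feature tested or sex, 11 under the 50th percentile filter, 21 with the trend and 4 with each array centred on its median; leaving out 1 array gave 0 to 145. ERK feedback and target genes called numbered 3, against 0 with dim genes kept, every feature tested or sex, and 7 with the trend; leaving out 1 array gave 0 to 8. Other ETS factors called numbered 0 to 1. The cause was not tested.

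The replicate numbers are shared by the groups, but the labels do not say that they pair samples, and deviations of same-numbered samples correlated at -0.16 over genes. With the number as a replicate block, 113 genes were called lower and 3 higher, Etv5 and Etv4 stayed called (adjusted p = 0.0219 and 0.0449 in limma), Etv1 did not pass (adjusted p = 0.10 in limma), and 1 ERK gene was called, Spred3. With the pairing crossed, which is also the split by sex, 17 genes were called lower, 0 higher and 0 of the ERK genes, and Etv4 at -0.72 was not called. Between members, Etv5 against Etv4 moved from -0.67 to -0.75 with the mean of all features, and with the dimmer features Etv5 against Etv4 was -0.83, Etv5 against Etv1 -1.17 and Etv4 against Etv1 -0.34.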
